A study of Mus musculus with 9 samples.

Results

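In the enamel organ library of ELA mouse t-203-1-4, 235 of the 54532 genes in the table were near-private, that is, they reached at least 2 CPM (the count divided by the total of the library and scaled to 1000000) there and at least 10 times their highest value in any of the other 8 libraries. Genes whose names begin with Krt, Col, Wnt, Fzd, Fgf, Cldn, Itg, Mmp or Adamts were left out, which removed 1 gene, Mmp24. The members were thus chosen on their measured values in this library against all others, so their height in it is a description and carries no test. For ELA (early life adversity), litters were kept with sparse bedding and little nesting material from postnatal day 2 to 12, while control litters had standard cages. All 9 pups were male, on a C57BL/6 background and aged 12 days. In both groups they carried Crh-IRES-Cre and Ai14 tdTomato, from Crh-IRES-Cre +/+ dams and Ai14 tdTomato males, and each gave 1 library of polyA RNA from the enamel organs of its first molars (5 ELA and 4 control mice). Their titles, such as t-203-1-4, name the mice here, and the labels do not say what the numbers in them mean.

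The enamel organ is the epithelium around the forming crown, and its ameloblasts secrete the enamel matrix. It holds no central neurons, although nerve fibres with Schwann cells run in the tissue around the tooth. The cerebellum, by contrast, is built from densely packed excitatory granule cells, from Purkinje cells that carry its sole output from the cortex, from inhibitory interneurons and from Bergmann glia, the radial astrocytes that ensheathe Purkinje dendrites. In the mouse, granule cells are still being born in its outer layer at the age studied, and transcription factors of the Zic, Neurod and Barhl families mark them.

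The members included the transcription factors and receptors by which these cerebellar cells are known, and 3 promoter windows show them at the sequence level. Neurod1 and Barhl1 are granule cell transcription factors of the bHLH and homeobox classes, and Scg2 encodes secretogranin II, a protein of neuronal secretory granules. RefSeq (build GRCm38.p6) gave windows of 300 bases around the gene start for 161 of the 235 members (235 windows). They are written 5′ to 3′ on the strand of the gene. Capitals mark the E-boxes CATATG and CAGCTG (sites of the kind that bHLH factors bind), the cyclic AMP response element TGACGTCA, and TTCAGCACC, a part of the RE1 element bound by the neuronal repressor REST, each searched on both strands. In Scg2 the last of these lies on the opposite strand, so its complement is printed.
Neurod1 (chr2:79456587-79456886, minus strand): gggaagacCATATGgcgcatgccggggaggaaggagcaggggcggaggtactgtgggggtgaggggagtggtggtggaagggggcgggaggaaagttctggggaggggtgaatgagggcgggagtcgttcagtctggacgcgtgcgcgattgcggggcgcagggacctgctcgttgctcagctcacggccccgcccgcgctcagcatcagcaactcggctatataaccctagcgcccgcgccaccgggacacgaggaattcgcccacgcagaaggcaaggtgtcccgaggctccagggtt
Barhl1 (chr2:28916619-28916918, minus strand): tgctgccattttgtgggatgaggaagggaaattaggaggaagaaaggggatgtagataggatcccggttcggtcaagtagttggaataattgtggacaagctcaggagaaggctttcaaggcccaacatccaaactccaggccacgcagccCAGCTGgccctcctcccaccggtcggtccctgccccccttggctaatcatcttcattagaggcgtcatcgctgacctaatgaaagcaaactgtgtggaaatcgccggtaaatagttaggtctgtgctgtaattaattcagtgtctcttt
Scg2 (chr1:79439977-79440276, minus strand): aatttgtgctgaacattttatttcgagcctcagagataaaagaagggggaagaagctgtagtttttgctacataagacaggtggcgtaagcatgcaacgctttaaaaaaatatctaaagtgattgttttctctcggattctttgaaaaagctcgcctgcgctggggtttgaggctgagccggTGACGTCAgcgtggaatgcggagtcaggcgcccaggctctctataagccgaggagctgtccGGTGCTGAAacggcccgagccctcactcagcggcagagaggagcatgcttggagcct
The RE1 motif was present in 2.13% of the member windows and in 0.371% of all 32851 windows, and the cyclic AMP element in 3.83% and 1.79%. The 5 member genes with it were Arhgef33, C130071C03Rik, Celsr3, Ptprn2 and Scg2. The E-box CAGCTG was found in 20.4% of the member windows and in 16.3% of all, CATATG in 4.26% and 3.91%, and a further E-box, CAGATG, in 16.6% and 17.2%. TATAAA was found in 7.66% and 13.6%. These 6 motifs were chosen after the members were known, and a match describes letters in a window, not a bound site.

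Granule cell genes made the clearest group. Of 23 genes in the granule cell list, 18 were members, and 22 had their highest value in t-203-1-4. Among all 13558 genes at 2 CPM or more in t-203-1-4, 27% had their highest value there and 1.73% were members. The lists were chosen with earlier results of these data known, so their shares are a description. Zic1 (ENSMUSG00000032368, chromosome 9, 91358058 to 91365810, minus strand), a zinc finger factor of granule cell progenitors and their progeny, was the member of highest CPM. It had 145.9 CPM in t-203-1-4 (3205 counts), against 0, 0.554, 0.147 and 0.218 CPM in the other ELA mice and 0.589, 0.768, 0.589 and 0.532 CPM in the control mice. Neurod1 (ENSMUSG00000034701, chromosome 2, 79452521 to 79456751, minus strand), which drives granule cell differentiation, had 72.7 CPM in t-203-1-4, against 0.0496, 0.166, 0.147 and 0.125 CPM in the other ELA mice and 0.321, 0.240, 0 and 0.319 CPM in the control mice. In both genes t-203-1-4 stood alone, and the other 4 ELA mice lay within or below the range of the controls. In bulk RNA, fewer cells of a type and less RNA per cell cannot be told apart. Among the 232 members with a count outside t-203-1-4, Neurod1 had the largest ratio to the highest other library, 226-fold, and Zic1 followed at 189.9-fold.

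Gabra6 (ENSMUSG00000020428, chromosome 11, 42306437 to 42321072, minus strand) encodes the GABA-A receptor alpha6 subunit, which marks mature granule cells. It had 18.8 CPM in t-203-1-4, against 0, 0, 0 and 0.0623 CPM in the other ELA mice and 0.107, 0.0480, 0.0491 and 0.106 CPM in the control mice. Barhl1 (ENSMUSG00000026805, chromosome 2, 28907679 to 28916668, minus strand) had 20.9 CPM in t-203-1-4, against 0, 0.222, 0.0490 and 0.0623 CPM in the other ELA mice and 0.214, 0.0960, 0.147 and 0.106 CPM in the control mice. Cbln1 (ENSMUSG00000031654, chromosome 8, 87468405 to 87472609, minus strand) encodes cerebellin 1, which granule cells release to hold their synapses on Purkinje cells. It was present at a low level everywhere, with 44.1 CPM in t-203-1-4, against 1.44, 0.831, 0.588 and 1.34 CPM in the other ELA mice and 0.963, 1.01, 0.589 and 1.17 CPM in the control mice.

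The remaining granule cell members were Cntn2 (88.5 CPM in t-203-1-4), an axonal adhesion molecule, Zic2 (36.5 CPM), Neurod2 (29.4 CPM), Pax6 (25.8 CPM), Zic4, Nhlh2, Uncx, Cbln3, Zic5, En2, Nhlh1, Gabrd and Grin2c (3.41 CPM). All 5 Zic genes of the mouse were members, as were both Nhlh and both Barhl genes, while Neurod contributed 2 of 4. The summed CPM of the 18 granule cell members was 591 in t-203-1-4, and it ranged from 1.96 to 4.42 over the other 8 libraries. Atoh1, the factor of dividing granule cell precursors, had 25 counts in t-203-1-4 (1.14 CPM, under the minimum of the rule) and 0 in the other 8 libraries, which makes it at least 64.2-fold higher, taking 3 counts over the 8 libraries as the limit of a count of 0. Both early genes (Atoh1, Nhlh1, Barhl1) and genes of mature granule cells (Gabra6, Gabrd, Grin2c, Cbln3) were therefore detected. Of the list genes that were not members, Fat2 had 146.6 CPM in t-203-1-4 and 37.1 to 68.1 CPM in the other 8 libraries, Etv1 had 19.0 and 2.20 to 4.15 CPM, and Mab21l1 had 8.42 and 1.33 to 4.2 CPM, while Tlx3 was at 0 in t-203-1-4 and at up to 0.0982 CPM elsewhere.

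Purkinje cell genes contributed 8 of 19. Car8 (ENSMUSG00000041261, chromosome 4, 8143362 to 8239041, minus strand), which encodes an inactive carbonic anhydrase relative that binds the inositol trisphosphate receptor, had 52.0 CPM in t-203-1-4, against 1.24, 1.33, 1.42 and 1.78 CPM in the other ELA mice and 1.12, 1.78, 1.77 and 0.957 CPM in the control mice. Slc1a6, the glutamate transporter EAAT4 of Purkinje dendrites, had 28.9 CPM in t-203-1-4, against 0.645, 0.886, 1.81 and 1.78 CPM in the other ELA mice and 0.268, 0.240, 0.442 and 0.266 CPM in the control mice. For Car8 the other ELA mice overlapped the controls, whereas for Slc1a6 they lay above every control. Other Purkinje members included the transcription factor Lhx1 (10.4 CPM in t-203-1-4), Pcp2 (9.51 CPM), Ppp1r17 (5.14 CPM) and Lhx5 (2.23 CPM).

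Several Purkinje genes were well detected in the other libraries too and were not members. Calb1, which encodes the calcium buffer calbindin, had 4097 CPM in t-203-1-4 and 2762 to 5875 CPM in the other 8 libraries, so the summed Purkinje list did not stand out (4588 CPM, against 2889 to 6006 CPM). Itpr1, the inositol trisphosphate receptor, had 183.9 CPM in t-203-1-4 and 31.5 to 62.1 CPM in the others, and Rora had 67.6 and 21.3 to 40.8 CPM. Pcp4 did not follow the rest of the list, with 0.410 CPM in t-203-1-4 and 0 to 0.432 CPM in the other libraries.

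Markers of unipolar brush cells and of glutamatergic nuclear neurons gave 4 members of 6. They included Slc17a6 (7.24 CPM in t-203-1-4, with at most 0.245 CPM elsewhere), which loads glutamate into vesicles, Calb2 (3.60 CPM) and Eomes (2.59 CPM). The 4 summed to 38.6 CPM in t-203-1-4 and 0 to 0.561 CPM in the others. Of the remaining pair, Lmx1a, which marks unipolar brush cells, was at 0 in t-203-1-4 and at up to 0.199 CPM elsewhere, and Tbr1 was at 0.182 CPM, against at most 0.125 CPM. Inhibitory interneuron markers gave 3 of 15, among them the vesicular transporter Slc32a1 (6.78 CPM, at most 0.343 CPM elsewhere) and the GABA-making enzyme Gad2 (5.6 CPM). Gad1, which makes GABA as well, was not near-private, with 91.7 CPM in t-203-1-4 and 79.6 to 140.7 CPM in the other libraries. Tfap2b (17.2 CPM, up to 21.9 CPM elsewhere) and Lypd6 (15.1 and up to 17.9 CPM) were also higher in another library. Ptf1a had 0 counts in every library. Of the 15 interneuron genes, 11 had their highest value in t-203-1-4, and the list summed to 336.0 CPM there and 186.6 to 278.7 CPM elsewhere.

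Glial genes accompanied the neuronal ones. Of 19 genes of Bergmann glia and astrocytes, 5 were members and 16 had their highest value in t-203-1-4. They included the water channel Aqp4, the glutamate transporter Slc1a2 (37.0 CPM in t-203-1-4), the intermediate filament Gfap (35.3 CPM) and the matrix protein Ncan (34.5 CPM). Aqp4 had 56.6 CPM in t-203-1-4, against 0, 0.166, 0 and 0.592 CPM in the other ELA mice and 0.0535, 0.480, 0.0982 and 0.319 CPM in the control mice. Slc1a3, the glutamate transporter most abundant in Bergmann glia, missed the ratio, with 99.3 CPM in t-203-1-4 and 10.3 to 21.4 CPM in the others, as did Gdf10 (22.2 and 3.38 to 6.24 CPM) and Fabp7 (43.7 and 1.06 to 9.80 CPM). The 3 genes with a higher value in another library were Hopx (4.69 CPM in t-203-1-4, up to 11.7 CPM elsewhere), Sox2 (2.00 and up to 6.53 CPM) and Gjb6 (1.73 and up to 1.94 CPM). Of the oligodendrocyte lineage, 2 of 17 were members and 13 had their highest value in t-203-1-4. The members were the myelin gene Mobp (11.6 CPM) and the transcription factor Olig2 (2.00 CPM). Mbp (89.4 CPM in t-203-1-4, 17.98 to 39.2 CPM elsewhere) and Gpr17 (10.8 and 0.528 to 1.25 CPM) had their highest value in t-203-1-4 too but stayed under 10-fold. Cspg4, a gene of oligodendrocyte precursors and of pericytes, had 80.5 CPM in t-203-1-4 and 69.4 to 144.3 CPM elsewhere. Enpp6 (12.7 and 6.4 to 20.5 CPM) and Sox10 (2.32 and 0.943 to 3.35 CPM) were likewise higher in another library, and Opalin had 0 counts in every library.

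**Figure D1:**
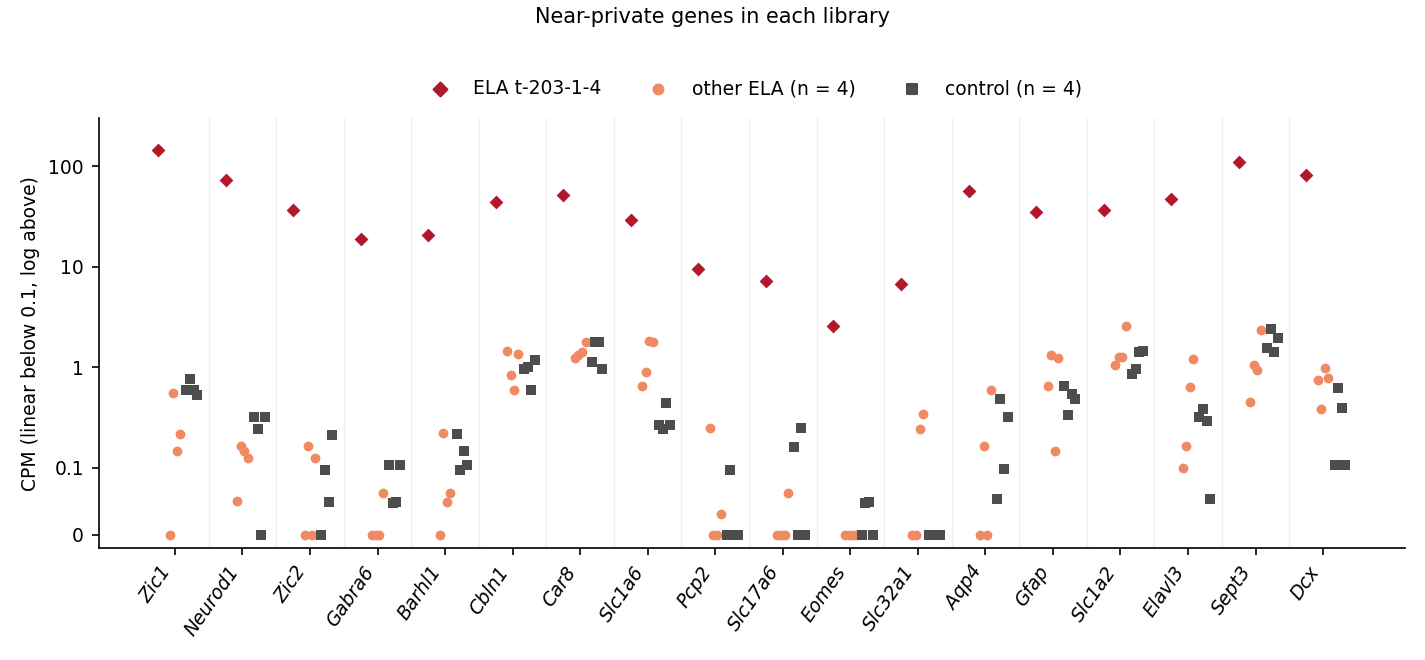
CPM of 18 members in each of the 9 libraries, on an axis that is linear below 0.1 and logarithmic above it. The diamond of t-203-1-4 lies at least 10-fold above every other library for each gene, which the rule requires, while the circles (other ELA mice) and squares (control mice) overlap for most genes, with Slc1a6 as an exception.

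The lists of other nervous tissue gave no member. Schwann cell genes (14 measured) summed to 171.5 CPM in t-203-1-4 and to 128.2 to 237.9 CPM in the other 8 libraries, and 2 of the 14 had their highest value in t-203-1-4. Genes of sensory ganglion neurons (15 measured) summed to 10.1 CPM, against 7.75 to 16.5 CPM, and the nociceptor gene Calca was at 0.819 CPM, against 1.39 to 6.70 CPM. Forebrain neuron genes (14) summed to 16.4 CPM in t-203-1-4 and to 4.34 to 20.7 CPM elsewhere, and 7 of the 14 had their highest value in t-203-1-4. Those 7 included Neurod6 (1.5 CPM, at most 0.405 CPM elsewhere), Ppp1r1b (2.50 and at most 0.467 CPM) and Camk2a (4.96 and at most 4.3 CPM), while Emx1, Emx2 and Fezf2 had 0 counts there. The highest forebrain sum, 20.7 CPM, was that of t-203-1-5. Midbrain and brainstem genes (18) summed to 9.92 CPM, against 5.03 to 9.94 CPM, and 13 of the 18 had a count in any library. Of these, 3 had their highest value in t-203-1-4, En1 among them (1.77 CPM, at most 0.736 CPM elsewhere), and Fev, Lmx1b and Hoxc4 were at 0 there and at up to 0.319 CPM in other libraries. None of the 40 Hox genes, which mark hindbrain and spinal cord behind the cerebellum, was a member, and their sum was 3.82 CPM, against 2.26 to 6.71 CPM.

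Non-neuronal cells of the brain and other head tissues gave no member either. In t-203-1-4 and in the range of the other 8 libraries, choroid plexus genes summed to 7.65 and 3.12 to 11.5 CPM, ependymal genes to 5.42 and 5.24 to 10.1 CPM, microglial genes to 70.7 and 51.1 to 116.3 CPM, meningeal genes to 17.1 and 6.55 to 22.1 CPM, and brain endothelial genes to 143.4 and 99.1 to 154.0 CPM. Single genes differed from these sums. Highest in t-203-1-4 were 3 of 5 meningeal, 3 of 5 brain endothelial, 2 of 7 choroid plexus, 2 of 6 microglial and 0 of 6 ependymal genes. Meningeal Slc13a3 (3.37 CPM, at most 1.71 CPM elsewhere) and endothelial Slco1c1 (1.87 and at most 0.343 CPM) were among them, while Aldh1a2 and Slc2a1 were higher in another library. Inner ear genes summed to 5.42 and 3.23 to 5.74 CPM and anterior pituitary genes to 0.728 and 0.348 to 1.77 CPM. The retina list (9 genes) was the exception in level, at 2.73 CPM in t-203-1-4 and 0.393 to 1.15 CPM elsewhere, of which Rlbp1 alone had 1.91 CPM. The 7 ameloblast genes, which check the labelled tissue, were all expressed and summed to 123790 CPM in t-203-1-4 and to 87367 to 158190 CPM in the other libraries. Of the 7, 1 had its highest value in t-203-1-4 and 2 their lowest, among them Odam (14678 CPM, against 18878 to 29081 CPM elsewhere).

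**Figure D2:**
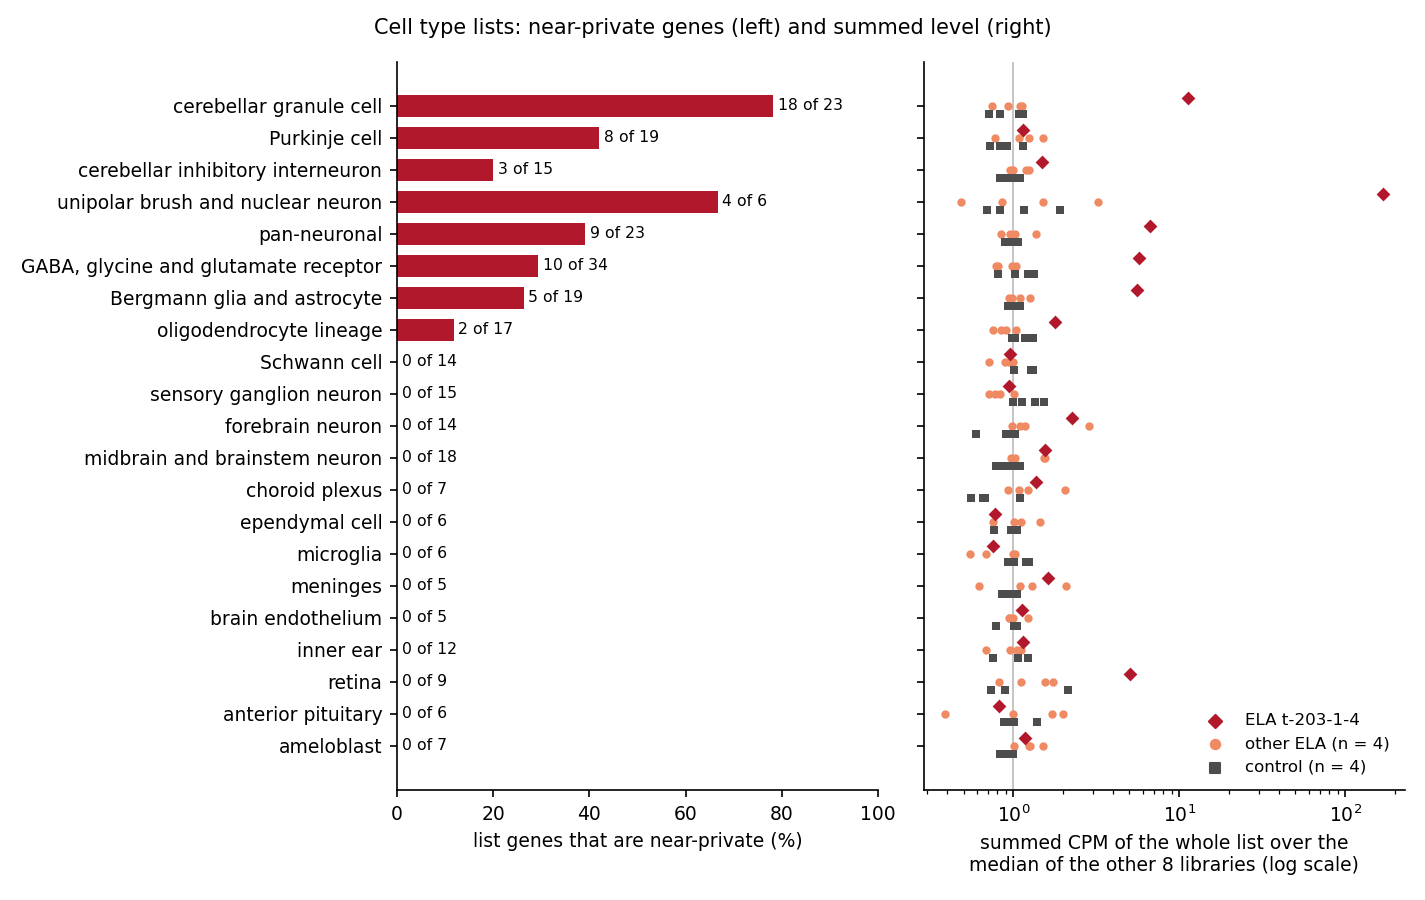
The left panel gives the percentage of each fixed list that was near-private to t-203-1-4, from 18 of 23 granule cell genes to 0 in the 13 lists at the bottom. The right panel gives the summed CPM of the whole list in each library relative to the median of the other 8 libraries, on a log axis, and the diamond of t-203-1-4 lies far to the right for the granule cell, unipolar brush, pan-neuronal, receptor and Bergmann glia lists and among the other libraries for the Purkinje, Schwann and sensory ganglion lists.

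Compared per transcript length (FPKM, CPM per kilobase of gene length in the table), the most abundant members in t-203-1-4 were Neurod1 (26.6 FPKM) and Zic1 (25.6 FPKM), ahead of Cbln1 (14.5 FPKM), Car8 (13.5 FPKM), Slc1a6 (13.4 FPKM) and Zic2 (12.7 FPKM). The 12 of highest FPKM also included genes of neurons in general, among them Sept3, a neuronal septin, Cplx1, a complexin of the release machinery, Rtn1, Ppp2r2c and Eef1a2. Over all members FPKM in t-203-1-4 ran from 0.181 to 26.6 with a median of 1.90, and CPM from 2.00 to 145.9 with a median of 12.0. The median CPM over the other 8 libraries was itself 0.110 in the median member. There were 129 members at 20-fold or more above the highest other library, 48 at 50-fold and 17 at 100-fold.

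The fixed lists held 59 of the members, and 176 were in none of them, so list membership covers only a part of the set. The members were also grouped by role after their values were seen, and these groups hold list members, such as Dcx, Cntn2 and Elavl3, beside others. A group of 19 encoded ion channels or their auxiliary subunits, from Cacna1e (45.5 CPM in t-203-1-4) to Cacna1i (3.00 CPM), and summed to 235.3 CPM in t-203-1-4 and 2.48 to 7.01 CPM in the others. They included 3 of the 10 sodium channel alpha subunits (Scn1a, Scn2a and Scn8a, but not the Scn9a, Scn10a and Scn11a of sensory ganglia) and 3 of the 10 calcium channel alpha1 subunits. Synaptic vesicle and secretory granule genes (15) summed to 302.1 CPM, against 2.98 to 13.2 CPM, with 4 of the 5 chromogranin and secretogranin genes among them. Axonal cytoskeleton and motor genes (8), with all 4 neurofilament genes searched for (Ina, Nefh, Nefl and Nefm), summed to 290.1 CPM, against 3.38 to 11.5 CPM. Adhesion and axon guidance genes (13) summed to 313.8 CPM, against 5.24 to 8.83 CPM, and RNA-binding proteins of neurons (5, among them Elavl2, Elavl3 and Elavl4) to 123.3 CPM, against 1.34 to 4.70 CPM. Lists, roles and transcription factor families together covered 126 members and left 109 with none of these.

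The receptor list gave 10 members of 34, beside those in other lists. By family, the members comprised 4 of 19 GABA-A receptor subunits (Gabra6 and Gabrd among them), 2 of 4 AMPA subunits, 3 of 7 NMDA subunits (Grin1, Grin2b and Grin2c), 3 of 8 metabotropic glutamate receptors and 1 of 5 kainate subunits. The pan-neuronal list gave 9 of 23, among them Dcx, a microtubule protein of young neurons, and Elavl3. All 23 of its genes had their highest value in t-203-1-4, but Stmn2 (110.4 CPM, against 15.8 to 33.5 CPM), Tubb3 (96.8 and 33.0 to 58.4 CPM) and Map2 (84.8 and 4.32 to 8.54 CPM) missed the ratio. Over the 12 neural lists, 89 of the 155 measured genes that were not members also had their highest value in t-203-1-4.

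A transcription factor family was given in the table for 29 members (12.3%, against 7.07% of all genes at 2 CPM or more in t-203-1-4). There were 10 C2H2 zinc finger, 6 bHLH, 6 homeobox and 3 C2HC zinc finger genes, and Pax6, Pou3f2, Sox1 and Eomes made up the rest. The 8 of highest CPM in t-203-1-4 were Zic1, Neurod1, Zic2, Neurod2, Pax6, St18, Bhlhe22 and Barhl1. Most members were protein-coding (226, or 96.2%, against 94.3% of genes at 2 CPM or more), with 6 long intergenic RNAs, 2 antisense RNAs and 1 processed transcript. The noncoding members included Mir124a-1hg, the host gene of the neuronal microRNA miR-124, at 15.5 CPM in t-203-1-4 and at most 0.343 CPM elsewhere.

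The members lay on 20 chromosomes. In 10 cases 2 of them were neighbours among the protein-coding genes, including the head-to-head pairs Zic1 and Zic4 (3397 bases between starts) and Zic5 and Zic2 (9758 bases), and the neurofilament pair Nefm and Nefl. Their median length in the table was 5813 bases, against 4498 bases for all genes at 2 CPM or more. Another gene of the table overlapped 133 of the members, and in 15 cases the overlapping gene was at least as high in t-203-1-4. Since the strand setting of the counting is not given in the sources used here, reads of such pairs on opposite strands cannot be told apart.

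At the borders of the rule, Olig2 (2.00 CPM in t-203-1-4) and Cntnap4 (2.05 CPM) lay just inside the CPM minimum, and Gjd2 and Rfx4 (1.96 CPM each) just outside it. Kif5a (10.01-fold) and Mgat5b (10.07-fold) lay just inside the ratio, and Map2 (9.93-fold) and Scn3b (9.92-fold) just outside it. Among the members with the highest values in another library were Ppp2r2c (7.70 CPM), Rtn1 (4.83 CPM) and Kif5a (4.52 CPM). At the other end, Galr1, 2610035F20Rik and Gm31409 had 85, 58 and 54 counts in t-203-1-4 and 0 in all other libraries, so that they were at least 218-fold, 149-fold and 139-fold higher against a limit of 3 counts over the 8 libraries.

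The 235 members held 97876 of the 21973071 counts of t-203-1-4, or 0.445% (95% exact binomial interval 0.443% to 0.448%, counting error only), a summed level of 4454 CPM. In the other ELA mice they summed to 64.9, 93.8, 81.2 and 154.7 CPM, and in the control mice to 90.9, 80.7, 86.9 and 98.0 CPM. Library t-203-1-5 was thus the next highest, and it held the highest other value for 102 of the 232 members detected outside t-203-1-4, against 12 to 26 members for each other library. It was also the deepest library, with 32110160 counts against 18056774 to 21973071 in the others, and it showed a count for 217 of the members, against 127 to 177 in the remaining 7 libraries. Whether its depth or its shared title number plays a part was not tested.

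The same rule applied to each other library in turn found 14 genes in t-205-1-3, 1 in t-203-1-3, 1 in c-204-1-2 and 0 in the remaining 5. With a ratio of 2 in place of 10 it found 717 genes in t-203-1-4, 108 in t-205-1-3 and 2 to 17 in each of the other libraries.

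**Figure D3:**
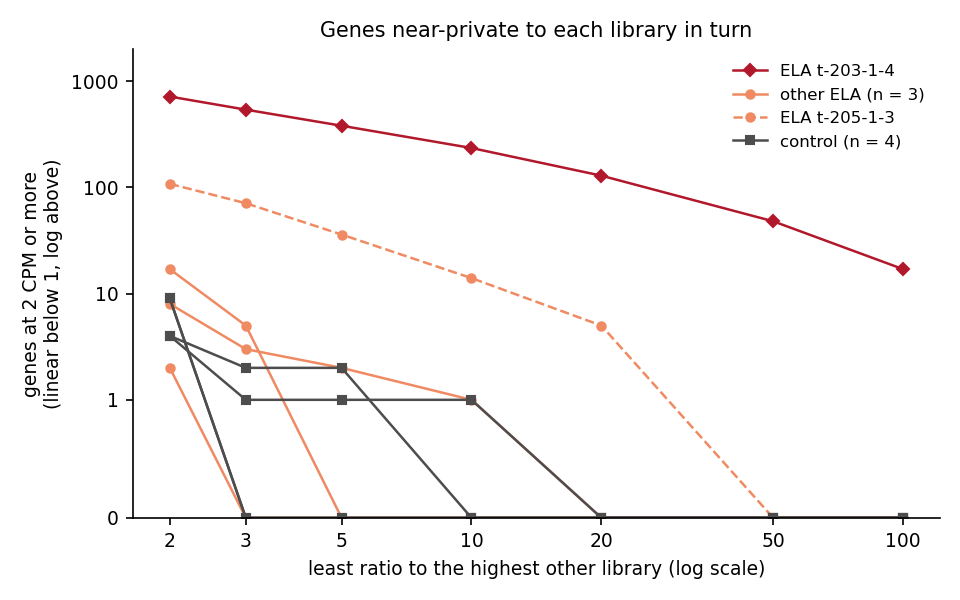
Number of genes at 2 CPM or more (linear below 1, logarithmic above) that exceed the highest other library by at least the ratio on the log x axis, with each of the 9 libraries taken in turn. The curve of t-203-1-4 runs from 717 genes at a ratio of 2 to 17 at 100, and no other library has a gene left at 50.

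The ELA mean of the members was set largely by this library. Summed over the members, the 5 ELA mice averaged 969.8 ± 1948 CPM (SD, n = 5), the 4 ELA mice without t-203-1-4 98.7 ± 39.2 CPM (SD, n = 4), and the control mice 89.1 ± 7.28 CPM (SD, n = 4). Library t-203-1-4 supplied 91.9% of the ELA total. Zic1 averaged 29.4 ± 65.1 CPM over 5 ELA mice, 0.230 ± 0.234 CPM over the other 4 ELA mice and 0.619 ± 0.103 CPM over 4 control mice. Neurod1 averaged 14.6 ± 32.4 CPM over 5 ELA mice, 0.122 ± 0.0510 CPM over the other 4 and 0.220 ± 0.151 CPM over the controls. Car8 averaged 11.6 ± 22.6 CPM over 5 ELA mice, 1.44 ± 0.234 CPM over the other 4 and 1.41 ± 0.428 CPM over the controls. For all 3 genes the SD of the 5 mice exceeded their mean. For single members t-203-1-4 held from 78.1% to 100% of the ELA sum, with a median of 93.2%, and the rule requires a large share.

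With 5 ELA mice the mean lay above the control mean for all 235 members (46.4% of all genes with a count did so). The rule fixes this, since it places t-203-1-4 at least 10 times above every control, so the 5-mouse values are a description. With the other 4 ELA mice the mean lay above for 141 and below for 91 (above for 40% of all genes). The median ratio of the ELA mean to the control mean, over the 218 members with a control mean above 0, was 16.5 with 5 mice and 1.09 with 4, while over all 27434 genes with a control mean above 0 it was 0.949 and 0.928. Among these 4 mice t-203-1-5 had the highest summed level of the members, 154.7 CPM, and the others had 64.9 to 93.8 CPM. A mean above 1 CPM is a common threshold for calling a gene expressed. By it 195 members were expressed in ELA mice, 21 in ELA mice without t-203-1-4, and 21 in control mice. For the 190 members at 5 CPM or more in t-203-1-4, that library alone brings the mean of 5 mice to the threshold. Of 512 genes that passed in ELA and not in control mice (1.68% of genes with a count), 174 were members (34.0%), a description for the same reason. Without t-203-1-4 there were 220 such genes, of which 6 were members (Cbln1, Cntn1, Srcin1, Rbfox3, Gria1 and Slc1a6). The median of the 5 ELA mice passed 1 CPM for 27 members.

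**Figure D4:**
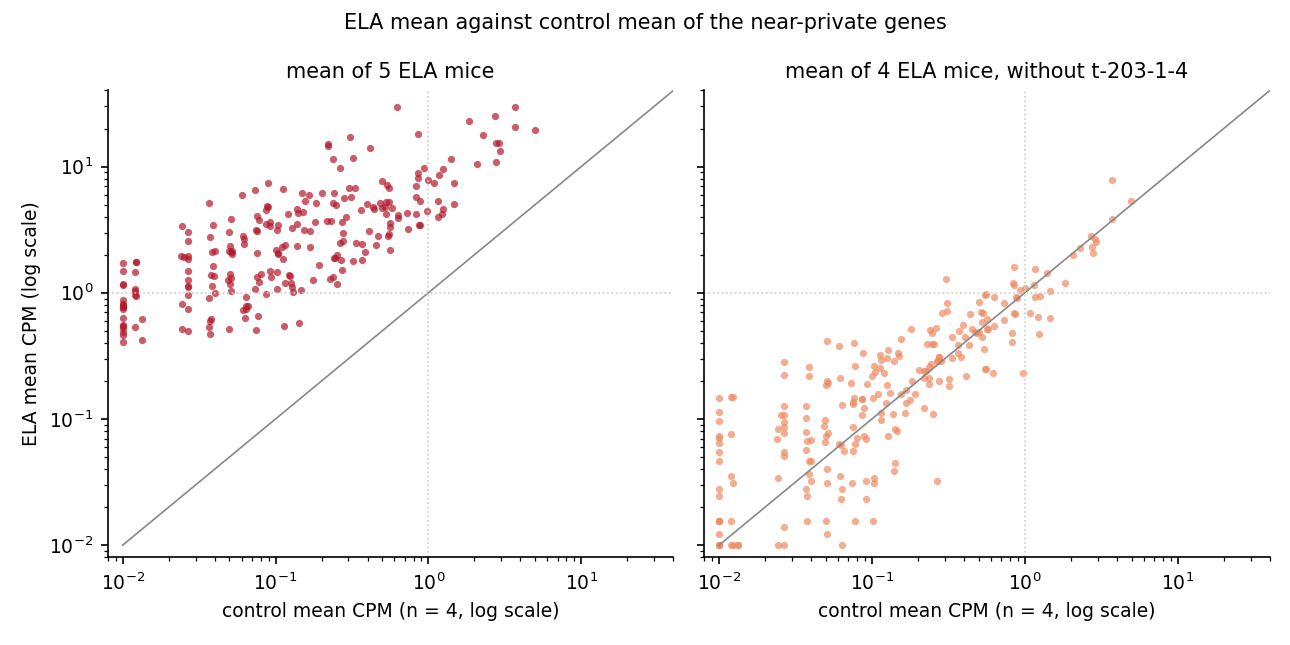
Mean CPM of each member in ELA mice (y axis) against control mice (x axis), both on log axes, with all 5 ELA mice on the left and without t-203-1-4 on the right. All 235 points lie above the line of equal means on the left, which the rule fixes, while 141 lie above it and 91 below on the right. Means under 0.01 CPM (17 of control mice, 10 of the 4 ELA mice) are drawn at 0.01.

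In the comparison of 5 ELA with 4 control mice over the whole table (edgeR quasi-likelihood test with Benjamini-Hochberg adjustment), 10 of 15909 tested genes passed an adjusted p of 0.05 (0.0629%), 6 higher and 4 lower in ELA mice. No member was among them. Of the members, 66 had enough counts in enough libraries to be tested, Neurod1, Gabra6 and Barhl1 not among them, and nothing is read from their direction, which the rule fixed. Their log2 fold changes ran from 1.76 to 5.71 with a median standard error of 1.27, and their lowest adjusted p was 0.456 (Slc1a6, log2 fold change 4.45, standard error 1.29). At an unadjusted p below 0.05 there were 29 members, all higher in ELA mice, while 6.44% of all tested genes had such a p and 3.56% were higher with it. By limma-voom 0.0566% of genes and no member passed, 0 members had an unadjusted p below 0.05, and their lowest adjusted p was 0.824.

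DESeq2 treated the members in another way. Its Cook distance cutoff, which withholds the p of a gene when 1 sample dominates the fit, left 232 of the 235 members without a p, of 453 genes in the whole table. Of the 3 members with a p (Gdap1l1, Mgat5b and March4) none passed an adjusted p of 0.05, as 0.736% of all genes did, and 2 had a higher level in ELA mice with an unadjusted p under 0.05 (3.86% of all genes). With the cutoff switched off, a setting chosen after the data were seen, 6 members passed as higher in ELA mice (0.43% of all genes). They were Dcx (adjusted p = 0.0376), Slc1a6 (0.0193), Grm5 (1.16e-07), Tmem59l (0.0420), Fam155a (0.0258) and Galr1 (6.40e-07), by DESeq2. The rule chose every member for its height in t-203-1-4, an ELA library, so nothing is read from these p-values. Zic1 and Neurod1 had adjusted p values of 0.269 and 0.190 by DESeq2 in that setting.

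Leaving the members out of the table before normalization moved the log2 fold change of no remaining gene by more than 0.00480, and 9 genes were called higher and 6 lower. The scaling of the other genes was thus hardly touched. Each of the 10 genes called with all libraries, among them the enamel matrix gene Amelx, kept its direction without t-203-1-4, where Csn3 passed (edgeR adjusted p = 0.0452) and the other 9 had an adjusted p of 0.0543. Both fits share the other 8 libraries, and the genes were called partly from them, so the kept direction is a description.

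The remaining 8 libraries show what the members did where the rule set only a ceiling. With 4 ELA and 4 control mice, 54 members could be tested by edgeR, none passed an adjusted p of 0.05 (0.00637% of all 15687 genes did), and 5 had an unadjusted p below 0.05 (5.75% of all genes), of which 2, Slc1a6 among them, were higher in ELA mice and Bhlhe22, Cacna1e and Fut9 lower. Their log2 fold changes ran from -1.87 to 2.13 with a median of 0.098, against 0.0122 over all tested genes. Without t-203-1-5 as well, 24 of 56 tested members had a positive value and the median was -0.0588. Leaving out any other library in its place gave medians of 0.0461 to 0.178. Of the genes in the neural lists, 103 could be tested and 0 passed, with 12 higher and 8 lower at an unadjusted p below 0.05.

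Slc1a6 had the smallest p of these members (log2 fold change 2.13, standard error 0.476, edgeR adjusted p = 0.197). It passed by DESeq2 in the same 8 libraries (log2 fold change 2.15, adjusted p = 0.0283), where 0.682% of all genes did. All 4 remaining ELA mice (0.645 to 1.81 CPM) lay above all 4 control mice (0.240 to 0.442 CPM). The same held for Fam155a, a subunit of the sodium leak channel, at 0.0980 to 0.348 CPM in ELA and 0 to 0.0535 CPM in control mice. The reverse held for the bHLH factor Bhlhe22, at 0 to 0.529 CPM in the 4 ELA mice and 0.864 to 1.08 CPM in control mice (edgeR adjusted p = 0.551), and for the neurofilament gene Nefh, at 0 to 0.0980 and 0.0982 to 0.432 CPM. The Nefh ranges nearly touch, and several values of Fam155a and Nefh lie below 3 counts (0.0934 to 0.166 CPM), where depth limits them. Among all genes with a count, 0.671% had the 4 ELA mice above every control and 2.13% below, and these 4 genes were picked out after their values were seen. With t-203-1-4 included, Slc1a6 and Fam155a, the same 2 members, had all 5 ELA mice above every control. The rule places t-203-1-4 above the controls for every member, so this count adds nothing. Over all genes, where t-203-1-4 was not fixed in advance, the share was 0.467%. By DESeq2, 4 further genes of the neural lists that were not members passed in the 8 libraries, Lgi2, Phox2a and Fabp7 higher and Grik1 lower in ELA mice.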

How the data were processed

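The deposited values were raw counts per gene, whole numbers for 54532 mouse genes in 9 libraries, sequenced and analysed for the authors by a company. CASAVA, HISAT and HISAT2 appear in the submitters' processing notes, with no version. Which program counted the reads, on which genome build and with what strand setting, is not given in the sources used here. All 235 member identifiers were found in GENCODE M21 (GRCm38), 226 with identical coordinates. CPM used the plain column total, and FPKM the gene length in the table. The members, the 21 marker lists and the tests were chosen with earlier results of these data known. Genes were named by a fixed rule (the 6 markers that define the set, the 12 members of highest FPKM, the 8 transcription factors of highest CPM, the leading genes of each list, the genes nearest each threshold, and the 5 members highest elsewhere), and others are said to have been picked later or belong to a list given in full.

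ELA and control mice were compared with edgeR 4.0.16 in R 4.3.3 (TMM, filterByExpr with a count minimum of 10, robust glmQLFit and glmQLFTest, Benjamini-Hochberg adjustment). Motifs and role groups were chosen after the values were seen. Standard errors are the log2 fold change over the square root of the F statistic. DESeq2 1.42.0, the tool the study used, and limma-voom 3.58.1 were alternatives, as were other thresholds, no count filter, other size factors and leaving out each library. Of the fits, only those of edgeR, DESeq2 and limma-voom in their main settings were run on simulated counts. In these counts no single library was raised for a set of genes as t-203-1-4 is. Within a group, the chi-square of any pair of libraries was 19.5 or more per degree of freedom, where sampling noise gives about 1, so none was a repeat. No source used here gives the litters of the sequenced mice, and mice of a group may share one, so p-values measure the spread between these mice only. Depth was 18056774 to 32110160 counts in ELA and 18683431 to 20831736 in control mice, where 3 counts are 0.0934 to 0.166 CPM. Some genes that this rule names are not reported here.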

Additional observations from a re-analysis of the deposited data

Results flagged for a closer look

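All 235 members had an ELA value of t-203-1-4 set apart from the next mouse. The gap exceeded the critical value for 5 samples (0.71 of the range), which the rule for members fixes in advance. A control value was set apart in 31 members (13.2%). The summed level of the members in t-203-1-4 (4454 CPM) was set apart from the other ELA mice, as were the sums of the granule cell list (766.1 CPM), the unipolar brush and nuclear neuron list (38.8 CPM), the pan-neuronal list (978.3 CPM), the receptor list (337.4 CPM), the Bergmann glia and astrocyte list (677.0 CPM), the oligodendrocyte list (319.4 CPM) and the retina list (2.73 CPM). Among control mice, 3 of the 21 lists had a library set apart, the Schwann cell list in c-202-1-2 (182.5 CPM), the brain endothelium list in c-204-1-2 (99.1 CPM) and the retina list in c-204-1-2 (1.15 CPM). The rule also fixes that the summed level of the members is set apart. Each list set apart in the ELA mice, except the retina list, holds members. Chance flags about 1 in 20 groups, and 44 sums were examined, but that rate does not apply to sums that hold members.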

How the results depend on the processing

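The number of near-private genes was 381 at a ratio of 5 and 129 at a ratio of 20, and 236 to 278 when 1 of the other 8 libraries was left out. Their share of the counts of t-203-1-4 was 0.657% at a ratio of 5, 0.262% at a ratio of 20 and 0.430% at a CPM minimum of 5. Of the members, 83.0% were above 1 CPM in the ELA mean, 11.5% by the median of the 5 mice, 21.7% above 1 FPKM, and 8.94% to 86.8% when 1 ELA mouse was left out, the lowest being without t-203-1-4. Genes called higher and lower in ELA mice numbered 79 and 59 by DESeq2, 85 and 59 by DESeq2 without its Cook distance cutoff (chosen after seeing the data), and 22 and 16 with no count filter. Without 1 library they ran from 0 to 15 higher and from 0 to 8 lower, with 0 called higher without any 1 of the 4 control mice, 15 higher and 8 lower without t-205-1-3, and 1 higher without any other ELA mouse. The cause was not tested. Genes of the neural lists called in the 8 other libraries numbered 5 by DESeq2 and 2 with no count filter (Lgi2 and Phox2a), and 0 to 0 without 1 library. TMM library sizes gave 227 members, and 81.3% of the 235 above 1 CPM in the ELA mean. Without t-203-1-4 the ELA mean of Zic1 was 0.230 in place of 29.4 CPM and that of Neurod1 0.122 in place of 14.6 CPM. No paired analysis was possible because no label says that the numbers in the titles pair mice across the groups. Depth limits values near 3 counts, or 0.0934 to 0.166 CPM, which includes most members outside t-203-1-4.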
